A study of Mus musculus with 20 samples.

Results

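The chromatin of fetal mammary stem cells (fMaSC) was set against that of 3 adult mammary cell types through 1464 regions. They were all members of 2 deposited region lists named for fMaSC, 1222 in a list named UAR and 242 in a list named URR. Together they were 1464 of the 11322 regions in the 8 UAR and URR lists of the 4 normal cell types, and all of them lay on the 19 autosomes or X. The labels do not expand the abbreviations. UARs are read here as regions more accessible in fMaSC and URRs as regions less accessible there, because every UAR held an fMaSC peak and every URR held a peak of all 3 adult types. The lists were thus chosen by the accessibility of the same samples, so the peaks found in them are described without a test.

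The fMaSC group was sorted from mammary glands of C57BL6J embryos at embryonic day 18, and the adult basal, luminal progenitor and mature luminal groups from adult glands of the same strain, whose age in weeks the labels do not give. Each group had 2 samples, and these 8 were the normal samples among 20 in the series. Open chromatin was measured by ATAC-seq, an assay whose transposase, Tn5, cuts and tags DNA that is accessible. The authors pooled both samples of a group into 1 peak list, so no value per sample, no replicate error and no depth can be given, and p-values between cell types are not reported. Whether the numbered samples came from separate animals is not stated in the labels. A weaker peak can mean fewer cells with an open site or less opening in each cell, which cannot be told apart in sorted populations. The cell type names could not be checked against marker genes, because the lists are in mm9 coordinates and no annotation of that build was used here. Regions are therefore given by position, without gene names or sequences.

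Fetal mammary stem cells are late-gestation cells of the mammary rudiment that can regenerate a gland when transplanted, and they carry features of both basal and luminal cells. In the adult gland these features are divided between basal cells, the contractile outer layer, and luminal cells, which include progenitors of milk-producing cells and hormone-sensing mature cells. Regions that open in 1 cell type alone are often enhancers, the regulatory elements that act on genes from a distance, whereas regions open in all types are often promoters.

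Fetal gains outnumbered fetal losses. There were 5.05 UARs for each URR in fMaSC, against 72.5 for basal, 11.3 for luminal progenitor and 3.19 for mature luminal lists. UARs had a median width of 1400 bp, a range of 400 to 5400 bp, and covered 1854 kb. URRs had a median width of 1700 bp, a range of 100 to 7900 bp, and covered 479 kb. The score that the authors gave each region, on a scale not stated in the sources used here, had a median of 1472 in UARs and 1165 in URRs. Among members with the lowest scores, the 3 UARs just inside the list had 301, 318 and 326, and the 3 URRs had 256, 268 and 284. Scores of regions outside the lists were not used here. Of all 128797 regions in the union of the 4 peak lists, 1.06% touched a UAR and 0.220% a URR.

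Most UARs held a called peak of the fetal population alone. No adult peak lay in 901 UARs, 73.7% of the list (95% exact binomial interval 71.2 to 76.2%). A basal peak was present in 234 UARs (19.1%, 17 to 21.5%), a luminal progenitor peak in 202 (16.5%, 14.5 to 18.7%) and a mature luminal peak in 77 (6.30%, 5 to 7.81%). The same shares over all fMaSC peaks were 70.0% for basal, 55.6% for luminal progenitor and 45.7% for mature luminal peaks, and 78.3% of all fMaSC peaks met a peak of some adult type. The list was selected for this difference, so nothing is read from it. Weak adult peaks made up most of the overlap: with the 30015 strongest peaks of each list, luminal progenitor peaks lay in 4.66% of UARs, basal peaks in 1.55% and mature luminal peaks in 0.900%, so that the order of basal and luminal progenitor peaks turned. Over the union of all peaks, 58.0% of regions had an fMaSC peak, 61.5% a basal, 44.4% a luminal progenitor and 45.9% a mature luminal peak. Intervals here and below treat regions as independent and cover counting error only.

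**Figure D1:**
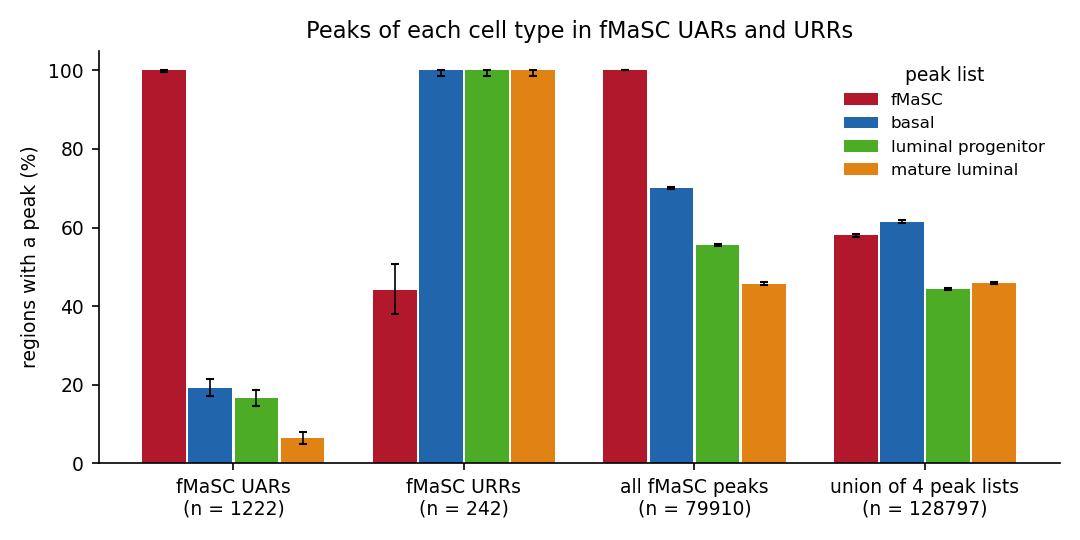
Share of regions (vertical axis, %) that hold a peak of each cell type (colours), for fMaSC UARs, fMaSC URRs, all fMaSC peaks and the union of the 4 peak lists, with 95% exact binomial intervals as error bars. Adult peaks lie in 6.30 to 19.1% of UARs, and fMaSC peaks in 44.2% of URRs.

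Among the 321 UARs that did hold an adult peak, fetal and adult peaks mostly overlapped. In 319 of them an adult peak shared bases with the fMaSC peak inside the UAR, and in 2 it lay beside it. Overlap here needs only 1 shared bp, and fMaSC peaks fill much of a UAR. The count therefore cannot separate the same site from close neighbours. The adult peaks were small relative to the region, and covered a median of 27.4% of the UAR for basal, 27.5% for luminal progenitor and 20.8% for mature luminal cells, where present. fMaSC peaks covered a median of 57.6% of all UARs, with 1 peak in 1098 UARs and 2 to 5 in the other 124. By pattern, 96 UARs shared a peak with basal cells alone, 63 with luminal progenitors alone and 14 with mature luminal cells alone. Another 85 shared peaks with both basal cells and luminal progenitors, and 44 with all 3 adult types.

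Peak strength differed in the same direction as peak presence. The choice of UARs favours both, so nothing is read from this. The authors' fold, the enrichment of a peak over its local background, was ranked within each list, since folds of separately called lists are not on 1 scale. The strongest fMaSC peak of a UAR had a median fold of 13.4 (quartiles 10.9 and 18.2) and stood at percentile 77.5 of fMaSC peaks. Adult peaks in UARs were weak in their own lists. Their median percentile was 25.2 in basal cells (fold 5.60), 31.0 in luminal progenitors (fold 5.40) and 21.3 in mature luminal cells (fold 5.73). None of the adult peaks in UARs reached the top 10% of its list, whereas 230 of 1222 UARs held an fMaSC peak in the top 10% of the fetal list.

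**Figure D2:**
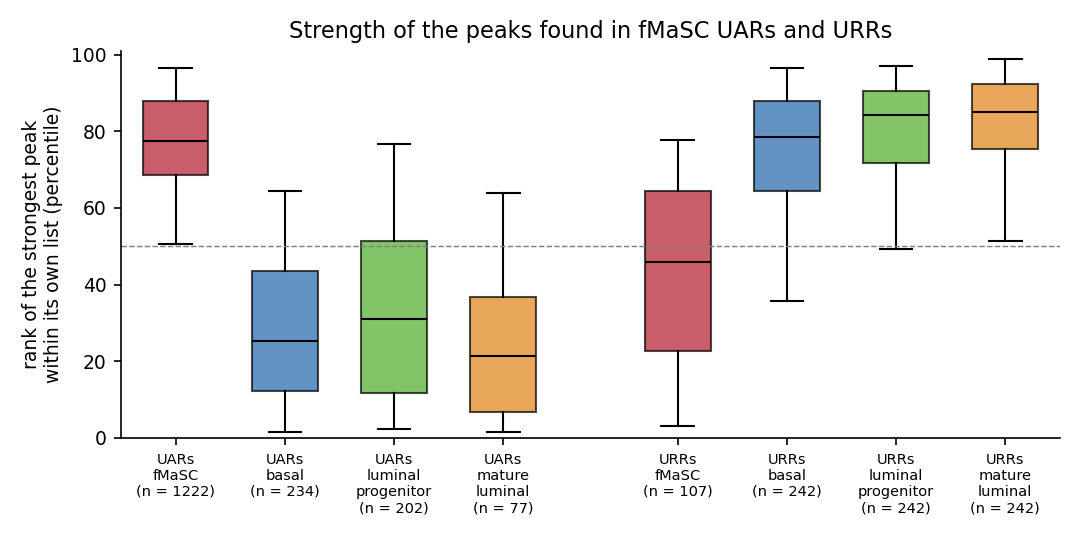
Rank of the strongest peak in each region within its own peak list (vertical axis, percentile), for fMaSC UARs on the left and URRs on the right, by cell type. Boxes give quartiles and median, whiskers the 5th and 95th percentiles, n the regions with a peak and the dashed line the middle of each list; in UARs the fMaSC median is 77.5 and the adult medians are 21.3 to 31.0.

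Single regions show how this looked. The UAR of highest score, on chromosome 5 from 122146401 to 122147300 (mm9), had a score of 18326, an fMaSC peak of fold 13.2 and no adult peak. The strongest fMaSC peak inside any UAR was in the one on chromosome 10 from 107346401 to 107348600 and had a fold of 38.7, percentile 99.9 of fMaSC peaks. This UAR also held a basal peak at percentile 64.5 of its list and a luminal progenitor peak of fold 13.7 at percentile 83.4, and no mature luminal peak. On chromosome 13 from 31412701 to 31414300, the fMaSC fold was 26.3 and a basal peak of fold 8.62 was the only adult peak. After the region on chromosome 10, the next UARs by fMaSC fold were ones with a peak of every adult type. One of these regions, on chromosome 9 from 95292001 to 95293400, had a fold of 35.2 in fMaSC beside a basal peak of 4.31, a luminal progenitor peak of 8.11 and a mature luminal peak at percentile 63.9. The leading regions by score and by fold were thus different ones, and across the 1222 UARs, which share the same libraries, the rank correlation of score and fold was 0.35.

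UARs took the strong end of the peaks that fMaSC had alone, and left most of the weak ones. Of 17328 fMaSC peaks that met no adult peak, 1027 (5.93%, interval 5.58 to 6.29%) lay in UARs. When all fMaSC peaks were divided by fold into 10 equal classes, all 54 such peaks of the strongest class were in UARs, as were 207 of 251 (82.5%) in the next and 336 of 645 (52.1%) in the one after. In the 5 weakest classes, with folds up to 7.60, the share was 0.451 to 2.13%. fMaSC peaks with no adult peak had a median fold of 11.9 inside UARs and 5.57 outside, and a median width of 656 bp inside and 295 bp outside. Sites open in fMaSC alone by peak presence were thus mostly weak and outside the list.

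URRs were sites of strong adult peaks at which the fetal peak was missing or weak. All 242 held a peak of each adult type, 135 had no fMaSC peak, and 107 (44.2%, interval 37.9 to 50.7%) had one. That share was 13.6% with the 30015 strongest peaks of each list, and 0 of 242 had at least 50% of the region covered by fMaSC peaks, which allows up to 1.24%. Where present, the fMaSC peak had a median fold of 7.34 at percentile 45.8 of its list. Adult peaks in URRs had median percentiles of 78.6 for basal (fold 15.3), 84.2 for luminal progenitor (fold 14.0) and 85.1 for mature luminal peaks (fold 17.7). In 106 of the 107 URRs with a fetal peak, its percentile was below that of all 3 adult peaks. The choice of URRs favours this, so nothing is read from the count. By percentile the adult peak ranked highest was the mature luminal one in 133 URRs (55.0%, 48.5 to 61.3%), the luminal progenitor one in 72 (29.8%) and the basal one in 37 (15.3%). This order is not read as particular to URRs. Outside them, 3060 union regions had peaks of all 3 adult types and none of fMaSC. Median percentiles there rose from basal (37.6) through luminal progenitor (40.0) to mature luminal peaks (52.9).

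The URRs with and without a fetal peak were not alike. Those that kept an fMaSC peak were wider, with a median of 2100 bp against 1400 bp, and had stronger adult peaks, with median folds of 19.2 against 11.9 for basal, 16.0 against 10.8 for luminal progenitor and 20.9 against 15.4 for mature luminal peaks. Their scores were lower, with a median of 716 against 1492. As with the gains, the list held the strong end of what peak presence gave. Of 3205 union regions with peaks of all 3 adult types and none of fMaSC, 145 (4.52%, 3.83 to 5.30%) touched a URR. Their adult peaks had median folds of 11.6 for basal, 10.6 for luminal progenitor and 15.4 for mature luminal peaks, against 6.68, 6.03 and 8.97 in the 3060 regions outside URRs.

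The URR of highest score, written as infinite in the deposited list, lay on chromosome 8 from 97686001 to 97687100 and had no fMaSC peak. Its folds were 24.1 for the basal, 13.7 for the luminal progenitor and 14.7 for the mature luminal peak. The next by score, on chromosome 2 from 181747301 to 181747900, had a score of 15624, no fMaSC peak and adult folds of 12.9, 13.3 and 14.4 in the same order, at percentiles 71.6, 82.2 and 76.8. Within 100 kb of it lay 2 union regions, against a median of 23.0 around URRs, and whether it lies in repeats was not tested. A URR on chromosome 6 from 108108301 to 108109900 was uneven among adult types, with a mature luminal peak of fold 30.1 at percentile 98.6 beside a luminal progenitor peak of 7.90 and a basal peak of 4.10. At the other end, the URR on chromosome 3 from 96360901 to 96368800, the widest of the list at 7900 bp, had the highest fMaSC fold among URRs, 22.8, beside adult folds of 24.1 for basal, 15.0 for luminal progenitor and 19.2 for mature luminal peaks.

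Fetal UARs lay far from shared open chromatin. Their median distance to the nearest region with a peak in all 4 cell types was 59.6 kb (quartiles 17.4 and 224 kb), against 16.1 kb for basal, 23.2 kb for luminal progenitor and 18.8 kb for mature luminal UARs. More than 50 kb separated 53.8% of fMaSC UARs from a shared region, against 23.7%, 35.3% and 28.2% in the same order of adult types. More than 500 kb separated 140 fMaSC UARs (11.5%), against 43 of 5144 basal UARs (0.836%). On each of the 20 chromosomes the median of fMaSC UARs, 35.4 to 169 kb, exceeded those of basal and mature luminal UARs, and it exceeded that of luminal progenitor UARs on 17. With shared regions built from the 30015 strongest peaks of each list, the medians were 146 kb for fMaSC UARs, against 43.7 kb for basal, 77.4 kb for luminal progenitor and 42.9 kb for mature luminal UARs. These differences have no test, because each list pools its samples.

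The surroundings were sparse as well. Within 100 kb on either side of a fMaSC UAR lay a median of 10.0 union regions (quartiles 5 and 17), against 20.0 around basal, 13 around luminal progenitor and 16.0 around mature luminal UARs. Fetal-only sites outside UARs lay nearer to shared regions than UARs with no adult peak did. Distances of union regions with a peak of a single adult type were not taken. Whether such distances are particular to fetal-only sites was therefore not tested. The 901 UARs with no adult peak had a median distance of 76.3 kb, against 38.7 kb for 436 fMaSC-only union regions outside UARs whose fold was at least 10.9, the first quartile of UARs, and 33.9 kb for 15865 weaker ones. UARs that held an adult peak were closer, at 30.8 kb. Of these, 44 held peaks of all 4 types, and 41 of the 1222 UARs overlapped a shared region. Part of that gap can thus follow from how the groups were defined. The part of region width in the order of distances was not tested: median widths were 1300 bp in the UARs with no adult peak, 566 bp in the strong and 292 bp in the weak fMaSC-only regions.

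**Figure D3:**
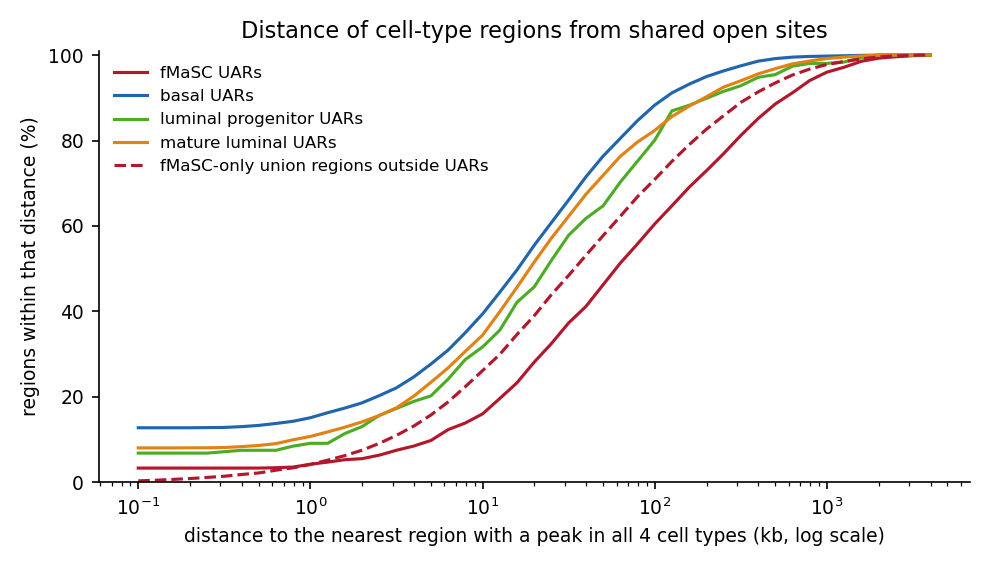
Cumulative share of regions (vertical axis, %) within a given distance of the nearest region open in all 4 cell types (horizontal axis, kb, log scale), for UARs of each cell type and for fMaSC-only union regions outside UARs (dashed). The fMaSC UAR curve lies lowest over most of the range, with a median of 59.6 kb against 16.1 to 23.2 kb for adult UARs.

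URR lists of every type lay nearer to shared open chromatin than fMaSC UARs did. The median distance to a region open in all types was 1.49 kb for fMaSC URRs, against 3.73 kb for 71 basal, 0.747 kb for 27 luminal progenitor and 13.6 kb for 1028 mature luminal URRs. Of the fMaSC URRs 107 were themselves such regions because they held a peak of every type. The 135 URRs without a fetal peak lay a median of 8.17 kb away, close to the 8.79 kb of the 3060 other regions that had all 3 adult types and no fMaSC peak. A median of 23.0 union regions lay within 100 kb of a URR. No URR had a fMaSC UAR within 10 kb, and 8 of 242 (3.31%) had one within 50 kb. A luminal progenitor UAR lay within 50 kb of 8 URRs (3.31%), a basal UAR of 80 (33.1%) and a mature luminal UAR of 77 (31.8%). The lists differ in length, with 1222 fMaSC, 306 luminal progenitor, 5144 basal and 3282 mature luminal UARs, so these shares are not compared.

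UARs were thinly spread among the chromosomes, and unevenly. Chromosomes 3, 1 and 14 had 19.8, 19.7 and 19.7 UARs per 1000 fMaSC peaks, whereas chromosomes 19, 15 and 11 had 5.98, 8.48 and 8.95. Chromosome 11 held 3.52% of fMaSC UARs and 6.01% of fMaSC peaks, while 8.40% of basal UARs were there. Regions open in all types were dense on chromosome 11, at 14.9 per Mb, and sparser on chromosome 1, at 9.38 per Mb, but chromosome X departed from this order, with 3.75 per Mb and 12.5 UARs per 1000 fMaSC peaks. URRs were most frequent on chromosome 15, with 3.49 per 1000 union regions, and least on chromosome 14, with 0.764, which rest on 19 and 4 URRs.

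**Figure D4:**
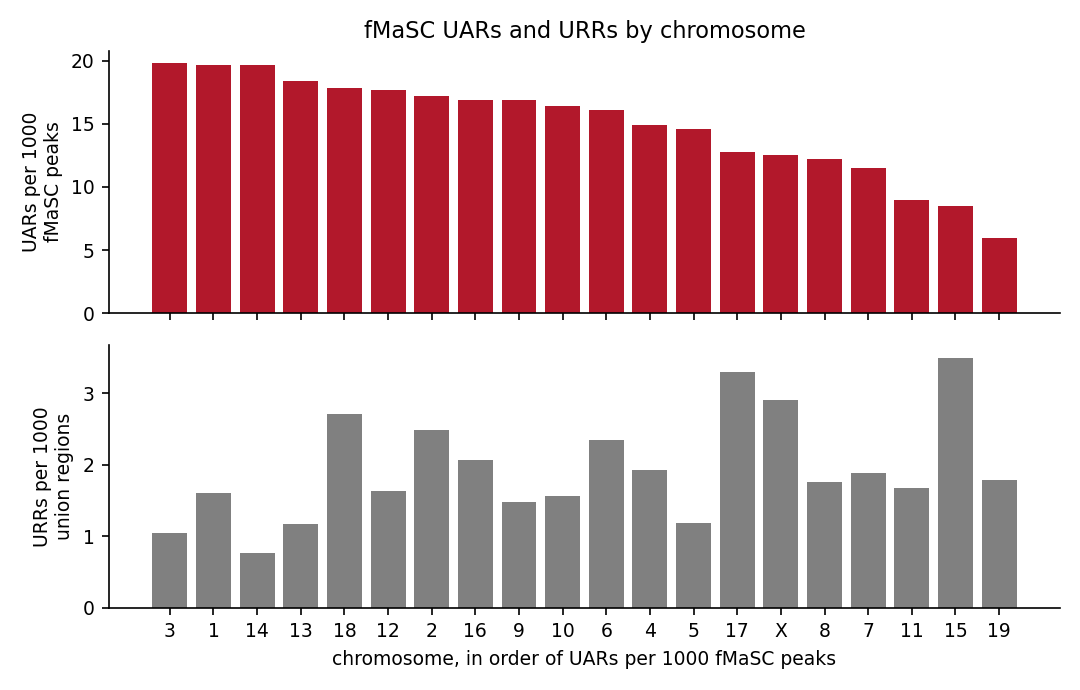
fMaSC UARs per 1000 fMaSC peaks (upper) and fMaSC URRs per 1000 union regions (lower) on each chromosome, in falling order of the upper panel. UARs span 5.98 on chromosome 19 to 19.8 on chromosome 3, and URRs span 0.764 on chromosome 14 to 3.49 on chromosome 15.

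Most UARs stood alone, with a median of 486 kb to the next UAR. The densest 1 Mb windows held 6 UARs each, on chromosome 2 from 135250001 to 136250000 and on chromosome 12 from 117400001 to 118400000. The window on chromosome 2 also held 1 mature luminal UAR and 0 regions open in SOX10-high tumour cells, and the one on chromosome 12 held 1 basal UAR and 8 such open regions. The third, on chromosome 1 from 10800001 to 11800000, held 5 UARs among 28 union regions, of which 3 were open in all types. For URRs the densest window, on chromosome X from 47000001 to 48000000, held 4 URRs and 1 fMaSC UAR, with 3 fMaSC peaks among 23 union regions.

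Regions of a tumour comparison gave a readout from other samples. PY230 cells, a line from a mouse mammary tumour, were grown as transplants in syngeneic mice, and the 2 tumour lists give regions open or closed in luminal PY230 cells with high SOX10, read as a comparison of 3 SOX10-high with 3 SOX10-low samples. SOX10 is a transcription factor of the neural crest that is also present in fetal mammary cells. fMaSC UARs met open regions in 93 cases, or 7.61% (interval 6.19 to 9.24%), and closed regions in 9, or 0.736% (0.337 to 1.39%). Over all union regions the background was 1.88% for open and 11.0% for closed, and over fMaSC peaks outside UARs it was 1.83% and 5.35%. Most UARs had no adult peak, and over fMaSC-only union regions outside UARs the shares were 1.99% and 1.09%. Over the 436 of these with an fMaSC fold of at least 10.9, the first quartile of UARs, they were 5.28% and 0.459%. The closed share of UARs includes the 321 with an adult peak, unlike the fMaSC-only shares, and is not read as particular to UARs. Closed shares of UARs with no adult peak are given below. Among fMaSC URRs 1 of 242 was open (0.413%, 0.0105 to 2.28%) and 33 were closed (13.6%, 9.58 to 18.6%). Both intervals contain the background shares of 1.88% and 11.0%, so neither share is read as a difference.

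Where a UAR met an open tumour region, that region covered most of it. A median of 88.9% of the UAR was covered, and in 92 of the 93 the open region touched the fMaSC peak itself. So wide a cover makes touching likely, and it is not read as a result. The share of UARs that were open varied with their adult peaks. With a luminal progenitor peak 35 of 202 were open (17.3%, 12.4 to 23.3%), against 58 of the 1020 without one (5.69%, 4.35 to 7.29%). Among UARs shared with luminal progenitors alone the share was 19 of 63 (30.2%, 19.2 to 43.0%), beside 12.1% of all 2670 union regions with that pattern. UARs with no adult peak were open in 49 of 901 cases (5.44%, 4.05 to 7.13%), beside 2.18% of all fMaSC-only union regions. Fold moved with this difference, and its part in it was not tested. Of the 436 fMaSC-only regions outside UARs with a fold of at least 10.9, 23 were open (5.28%, 3.37 to 7.81%). The interval of UARs with no adult peak contains 5.28%, so their open share is not read as particular to UARs. Median fMaSC folds were 16.7 in the 93 open UARs, also 16.7 in the 9 closed ones and 13.3 in the 1120 in neither tumour list.

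Few UARs were closed in the tumour cells, and few fMaSC-only union regions were. UARs with no adult peak were closed in 1 of 901 cases (0.111%, 0.00281 to 0.617%), beside 1.04% of all fMaSC-only union regions. Of the 436 fMaSC-only regions outside UARs with a fold of at least 10.9, 2 were closed (0.459%, 0.0556 to 1.65%). The interval of those UARs contains 0.459%, so their closed share is not read as particular to UARs. Of the 9 closed UARs, mature luminal peaks were in 8 (88.9%), luminal progenitor peaks in 4 (44.4%) and basal peaks in 3 (33.3%), against 5.71%, 14.6% and 18.4% of the 1120 UARs in neither tumour list. UARs with a mature luminal peak were closed in 8 of 77 cases (10.4%, 4.59 to 19.4%). Union regions with fMaSC and mature luminal peaks alone were closed in 27.6%. With a basal peak as well the share was 25.7%, with a luminal progenitor peak 19.3%, and with peaks of all 4 types 7.33%. The 77 UARs mix these patterns, and no union share of the same mix was taken, so their share is not read as a difference. The 33 closed URRs had a median mature luminal fold of 20.9, against 17.4 in the other 209, and a luminal progenitor fold of 10.6 against 14.5. URRs without a fetal peak were closed in 26 of 135 cases (19.3%, 13 to 26.9%), beside 24.3% of all 3205 union regions with that pattern, and those with one in 7 of 107 (6.54%, 2.67 to 13%), beside 7.33% of union regions with a peak in every type. Both intervals contain the share of the pattern as a whole.

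**Figure D5:**
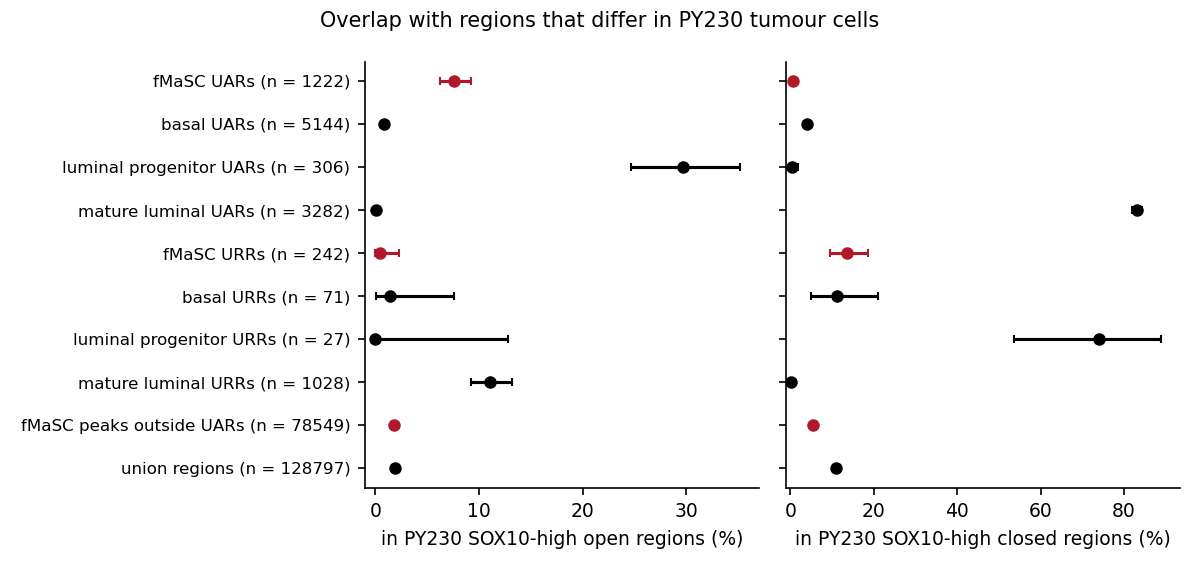
Share of regions (horizontal axes, %) that meet PY230 SOX10-high open regions (left) or closed regions (right), with 95% exact binomial intervals, for UARs and URRs of each normal cell type, fMaSC peaks outside UARs and union regions; rows named for fMaSC are red. fMaSC UARs are at 7.61% open and 0.736% closed, beside 1.88% and 11.0% of union regions. For fMaSC-only union regions outside UARs, not drawn, the shares were 1.99% and 1.09%. For the 436 of these with an fMaSC fold of at least 10.9, they were 5.28% and 0.459%.

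Open tumour regions were unevenly spread among chromosomes, which bears on these shares. Chromosomes 1, 4, 8, 13 and 18, chosen after seeing the data, each held over 5% of the open list and had the highest open shares of union regions among such chromosomes. On them 38 of 361 fMaSC UARs were open (10.5%), beside 2.85% of union regions. Away from these 5 chromosomes 55 of 861 UARs were open (6.39%, 4.85 to 8.23%), beside 1.52% of union regions. By chromosome the share of UARs was above that of union regions on 19 of 20, with chromosome 17 at 0 of 41 UARs, which allows a share of up to 7.32%. Named by score, the leading UAR open in the tumour lay on chromosome 4 from 95438301 to 95439600, with an fMaSC fold of 28.9 and a basal peak of fold 4.96. The UAR of highest fMaSC fold, on chromosome 10 from 107346401 to 107348600, was also open there. The fetal share of 7.61% open lay below that of luminal progenitor UARs, 29.7%, and above those of basal UARs, 0.836%, and mature luminal UARs, 0.0305%. Mature luminal URRs were open in 11.1%, and basal and luminal progenitor URRs in 1.41% and 0%. These differences have no test, because each list pools its samples and the intervals cover counting of regions only.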

How the data were processed

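Per the labels' protocols, ATAC-seq was run on nuclei of sorted cells. MACS2 2.1.1, SICER, bedtools 2.20.1, Bowtie 0.12.8, FastQC and SAMtools 1.3.1 stand in the submitters' processing notes beside the mm9 build, without their roles. How duplicates, mitochondrial reads and Tn5 offsets were handled is not stated there, and it could change peak presence. The value of each deposited peak is a fold, a ratio over background by the authors, called on both samples pooled at a q-value of 0.001 per the file names. Each UAR, URR and PY230 region carries a deposited score of unstated scale, and these lists lie on a 100 bp grid. Depth per sample is unknown.

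Coordinates are mm9 and 1-based; grid lists were moved by 1 base, and mitochondrial peaks (3 per list) were left out. Overlap means at least 1 shared bp. Union regions merge overlapping or adjoining peaks of the 4 lists. Distances run edge to edge. A rank percentile is the share of peaks in a list with a lower fold. Shares have exact (Clopper-Pearson) 95% intervals, and a share of 0 has the limit set by 3 counts. Windows of 1 Mb moved in steps of 50 kb. No test between groups was made. Members and lists were chosen with earlier results of these data known. Named regions follow a rule of extremes (highest and lowest score, highest fMaSC fold, densest windows, highest score within tumour lists), of which the text gives some. Planned gene lists and motifs were not used, since they need an mm9 annotation or genome. Python 3.11.15, numpy 2.4.6, scipy 1.17.1, pandas 2.3.3 and matplotlib 3.10.9 were used, and overlap functions were tested on simulated data.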

Additional observations from a re-analysis of the deposited data

How the results depend on the processing

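Of 42 alternative settings for 12 results, 21 stayed within the result's 95% interval, exact binomial for shares and from order statistics for medians. Requiring 50% of a UAR to be covered lowered the share with an adult peak to 2.21% for basal, 1.64% for luminal progenitor, 0.0818% for mature luminal and 3.52% for any adult type. With the 30015 strongest peaks of each list these shares were 1.55%, 4.66%, 0.900% and 5.65%, so basal and luminal progenitor peaks changed order. At 500 bp around the centre they were 14.3% for luminal progenitor, 4.66% for mature luminal and 23.6% for any adult type. An fMaSC peak lay in 0 of 242 URRs at 50% coverage, which allows up to 1.24%, in 13.6% with the strongest peaks and in 33.1% at 500 bp. The single URR in an open tumour region was lost at 50% coverage and at 500 bp, leaving 0. UARs with no adult peak, a subset chosen after seeing the data, were open in 5.44% and closed in 0.111%. Peaks at or above the median fold gave a median of 13.7 in UARs. Another UAR lay within 10 kb of 3.68% of UARs and within 50 kb of 13.3%. With shared regions built from the strongest peaks, added after seeing the data, the median distance of UARs was 146 kb, against 43.7 kb for basal, 77.4 kb for luminal progenitor and 42.9 kb for mature luminal UARs. Causes of these moves were not tested. Leaving out a sample was not possible for the pooled lists, and a promoter window and a sequence centre, which need an mm9 annotation or genome, were not run. No paired analysis was possible because each list pools both samples of a cell type. Unknown depth limits every comparison of peak presence between lists.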

Other observations

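UARs of high score were not wider than those of low score, but more of them were open in the SOX10-high tumour cells. In 4 classes of rising score, 4.25%, 5.25%, 8.85% and 12.1% of UARs met an open tumour region. The median width was 1400 bp in each class, and the median fMaSC fold was 12.2, 12.2, 13.7 and 17.6. The open tumour regions that fMaSC UARs touched had a median deposited score of 41.0, against 44.5 over all 3208 open regions.

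When UARs within 50 kb of each other were joined, 1060 stayed single, 70 formed pairs, 6 formed groups of 3 and 1 formed a group of 4. The group of 4 spanned 18.3 kb near the start of the chromosome 9 sequence, from 3018201 to 3036500, and contained 15 union regions, 4 of them open in all types. Whether it lies in repeats was not tested. A group on chromosome 6 from 49155801 to 49168600 held 3 UARs among 4 union regions, none of which was open in all types. A group on chromosome 16 from 81223501 to 81286500 held 3 UARs, 2 of which were open in the tumour cells, with a highest fMaSC fold of 30.9.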
